A study of Homo sapiens with 4 samples.

Results

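The endoplasmic reticulum (ER) machinery for protein folding, stress sensing, degradation and secretion was described across ARP-1 and MM.1S, human multiple myeloma lines, on 4 whole-transcript microarrays. The members are 42 genes listed by name for their roles and not by measured values, though earlier results of these data were known. Of the 42, 23 had a probe set with that symbol on the array annotation. The other 19, among them the major chaperones HSPA5 and HSP90B1 and the folding enzymes P4HB and PDIA3, are not analysed here. All 23 were among the 7442 genes, of 14884 in all, that passed the filter on mean intensity. Per the labels, both lines were infected with lentivirus carrying a short hairpin RNA, directed against MIF, a secreted cytokine (MIF-KO), or serving as control (CTR-KO), and GFP-positive cells were sorted. The control cells thus share the virus, the marker and the sort, and the name KO stands here for a lowered transcript. Each line and condition has 1 array, so each condition has n = 2 arrays, 1 from each line. The labels name no separate cultures. The p-values rest on how far the differences of the 2 lines disagree in these 4 samples alone, a spread that may in part be technical. For each gene, limma draws this spread toward that of tested genes of similar intensity (3.99 prior degrees of freedom beside 1 residual). Each SE given here is this moderated one, so neither SE nor p measures a gene's own disagreement alone.

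Myeloma cells are malignant plasma cells, which make and export large amounts of immunoglobulin. Proteins to be exported enter the ER through the Sec61 channel, lose their signal peptide to signal peptidase, fold with the help of chaperones and disulfide-forming enzymes, and are drawn back to the cytosol and degraded if they do not fold. The sensors IRE1 (gene ERN1), ATF6 and PERK (EIF2AK3) detect unfolded protein in the ER. IRE1 splices the mRNA of the transcription factor XBP1, and XBP1 and ATF6 act on promoters of chaperone and degradation genes, while PERK slows translation. Plasma cells depend on this unfolded protein response, and XBP1 is needed for their secretory capacity.

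Of the 4 arrays, CTR-KO ARP-1 was the outlying one, and the labels of the ARP-1 arrays do not agree among themselves: the description field of each gives the other condition than its title and genotype do. Titles are followed here. At least 4-fold differences set CTR-KO ARP-1 apart from MIF-KO ARP-1 in 43 tested genes and from the MM.1S control in 44, against 2 genes between that control and MIF-KO ARP-1. MIF had the lower signal under its hairpin in either line, at 541 against 1092 in ARP-1 and 405 against 1012 in MM.1S (intensity). Of the plasma cell markers, 7 of 10 had a probe set, and all passed the filter, with IRF4 between 3579 and 4380 and SDC1 between 184 and 471. Their summed intensity, XBP1 and MZB1 included, was 5814 (CTR-KO) and 6856 (MIF-KO) in ARP-1, and 6042 (CTR-KO) and 5929 (MIF-KO) in MM.1S. SDC1 (CD138, a surface proteoglycan) and CD38 (a surface enzyme) were the 2 of 7 at least 1.5-fold lower in MIF-KO ARP-1, by -1.36 and -1.44 on the log2 scale, and differed by 0.48 and 0.46 in MM.1S. These signs are opposite to those of most members, and the part of the markers in the members' differences was not tested. Of 22 markers of T, myeloid, erythroid, epithelial and fibroblast cells, 8 had a probe set. Apart from KRT18 (161 to 203) none of these exceeded 35.5 on any array. Array medians over all probe sets lay between 13.1 and 13.3.

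The short elements through which XBP1 and ATF6 are known to act are shown here. They split the members into those with and without an exact match, and the values of both sets follow further on. The 250 bases before each start in the RefSeq promoter table (build GRCh38.p14) were searched on both strands for the ER stress response element ERSE (CCAAT, any 9 bases, CCACG), ERSE-II (ATTGG, any 1 base, CCACG) and the UPR element UPRE (TGACGTGG). ERSE occurred in 0.074%, ERSE-II in 0.0513% and UPRE in 0.612% of all 35116 promoters. Of the 38 members in the table, 11 held ERSE or ERSE-II, and 7 of these 11 had a probe set. UPRE was found in 2 members, HYOU1 and SSR3, and in HYOU1 it overlaps the ERSE-II farther from the start. The stretches of the 7 measured genes follow in the direction of the gene, with the fixed letters of the element in capitals. A match is a description of the letters and shows no binding, and the lack of an exact match does not show that a working element is absent.
XBP1, ERSE, chr22:28800583-28800641, minus strand: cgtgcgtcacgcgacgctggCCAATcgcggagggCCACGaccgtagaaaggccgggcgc
CALR, ERSE in reverse, chr19:12938364-12938422, plus strand: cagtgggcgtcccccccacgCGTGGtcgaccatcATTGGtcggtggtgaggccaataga
CANX, ERSE, chr5:179698758-179698816, plus strand: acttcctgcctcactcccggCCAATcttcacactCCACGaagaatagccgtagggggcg
CRELD2, ERSE in reverse, chr22:49918534-49918592, plus strand: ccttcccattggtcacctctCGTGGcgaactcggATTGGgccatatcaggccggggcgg
ERO1B, ERSE in reverse, chr1:236282163-236282208, minus strand: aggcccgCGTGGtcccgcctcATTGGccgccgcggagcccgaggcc
HYOU1, ERSE-II in reverse, chr11:119057254-119057304, minus strand: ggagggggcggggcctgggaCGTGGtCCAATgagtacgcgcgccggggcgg
SDF2L1, ERSE-II in reverse, chr22:21642094-21642144, plus strand: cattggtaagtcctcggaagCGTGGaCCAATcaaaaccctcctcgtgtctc
The HYOU1 promoter holds a further ERSE-II, at chr11:119057360-119057410, and the one shown lies closer to the start. In XBP1 the element ends 34 bases before the start, the closest among these genes.

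Among the sensors, ERN1 had by far the widest spread. Its intensity was 115 (CTR-KO) and 528 (MIF-KO) in ARP-1, and 937 (CTR-KO) and 330 (MIF-KO) in MM.1S. The control arrays of the lines were thus the lowest and the highest, 8.17-fold apart, and the MIF-KO arrays lay between them, 1.60-fold apart. Within ARP-1, ERN1 was 4.61-fold higher in MIF-KO (log2 difference 2.20), and within MM.1S it was 2.84-fold lower (-1.50). The mean of both lines was 0.35 (moderated SE 0.88, n = 2 lines), with a limma adjusted p of 0.99995. This SE is drawn toward that of other genes and is not the spread of the 2 differences of ERN1. Without the ARP-1 pair, which holds the array that stands apart, the difference was -1.50. When the ARP-1 arrays were exchanged to follow their description fields, the mean was -1.85 and the limma adjusted p 0.0047. In that order, however, MIF in ARP-1 was 1092 under its own hairpin and 541 under the control hairpin. In that exchanged fit 2 members were called lower, ERN1 and SEL1L (2% of all tested genes), and 0 higher (3.39%).

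XBP1, the substrate of IRE1, varied far less. Its intensity was 930 (CTR-KO) and 1321 (MIF-KO) in ARP-1, and 1096 (CTR-KO) and 1056 (MIF-KO) in MM.1S. The ARP-1 arrays were the lowest and the highest, and the MM.1S arrays lay close together between them. MIF-KO exceeded CTR-KO by 0.51 (log2) in ARP-1, while the difference was -0.05 in MM.1S. The probe set stands for the gene, and spliced and unspliced XBP1 mRNA were not told apart here.

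ATF6 was measured at 599 (CTR-KO) and 829 (MIF-KO) in ARP-1, and 694 (CTR-KO) and 744 (MIF-KO) in MM.1S. The MIF-KO array was the higher one in both lines, by 0.47 and 0.10 on the log2 scale. EIF2AK3, the gene of PERK, was measured at 272 and 229 in CTR-KO and MIF-KO ARP-1, and at 231 and 268 in CTR-KO and MIF-KO MM.1S. Its differences, -0.25 and 0.22, had the signs opposite to those of ERN1. For MIF-KO minus CTR-KO the limma adjusted p of XBP1, ATF6 and EIF2AK3 was 0.99995. The 4 genes grouped here as sensors include XBP1, which is not itself a sensor but the factor whose mRNA IRE1 splices. Of these 4, ERN1, XBP1 and ATF6 were lowest on CTR-KO ARP-1, and EIF2AK3 was highest there.

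**Figure D1:**
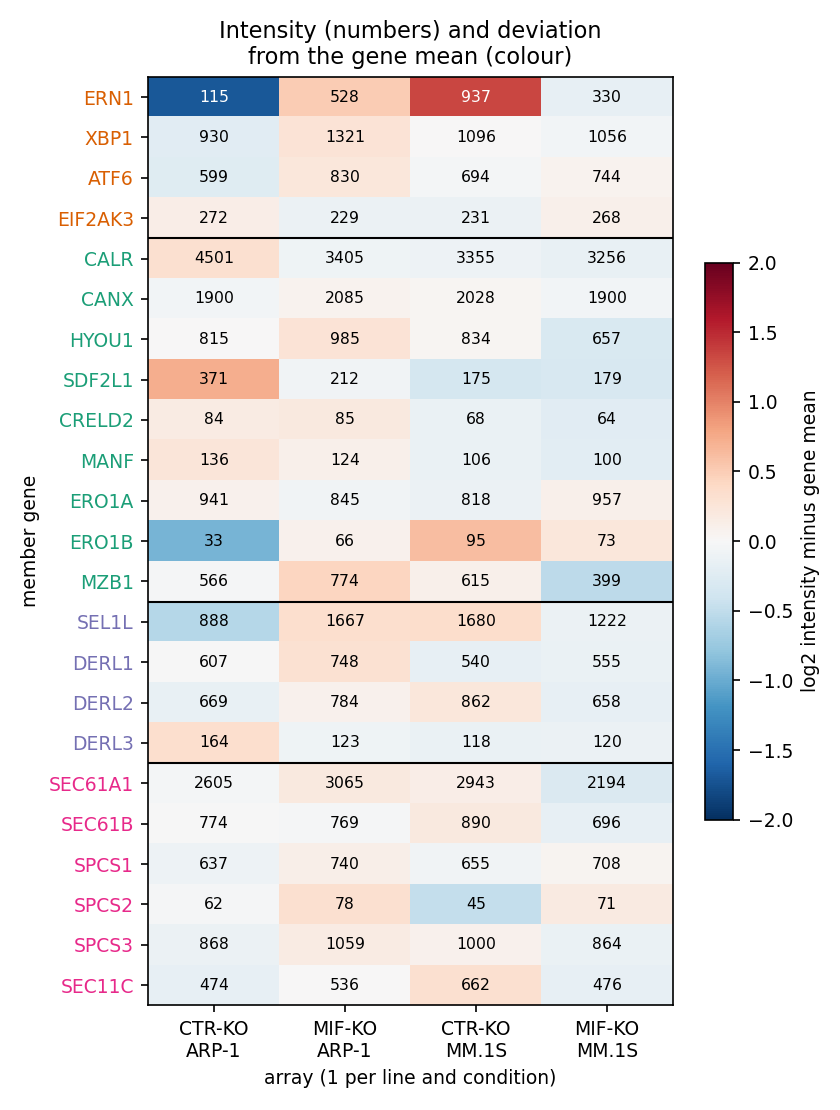
Heat map of the 23 measured members (rows, coloured by role: sensors, chaperones and folding enzymes, ER-associated degradation, translocation and signal peptide cleavage) on the 4 arrays (columns). Numbers are intensities and colour is the log2 intensity minus the gene's mean over the arrays. ERN1 runs from 115 to 937, while most other members change little between arrays.

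Of 19 listed chaperones and folding enzymes, 9 were measured. They showed no common direction in ARP-1, where 5 of the 9 were higher in MIF-KO (47.7% of all tested genes). In MM.1S 2 of the 9 were higher in MIF-KO and the others lower, where 44.9% of all tested genes were lower. SDF2L1, an ER partner of co-chaperones of HSPA5, was measured at 371 (CTR-KO) and 212 (MIF-KO) in ARP-1, and 175 (CTR-KO) and 179 (MIF-KO) in MM.1S. CTR-KO ARP-1 alone was high, and the other arrays lay close together. On the log2 scale MIF-KO minus CTR-KO came to -0.80 in ARP-1, against 0.03 in MM.1S (mean -0.39, SE 0.35, limma adjusted p = 0.99995).

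ERO1B, an oxidase that recharges protein disulfide isomerases, had the opposite order. Its intensity was 32.6 (CTR-KO) and 65.9 (MIF-KO) in ARP-1, and 95.2 (CTR-KO) and 72.9 (MIF-KO) in MM.1S. These are low signals, with CTR-KO ARP-1 within the range of other cell types' markers, so the size of the ARP-1 difference is uncertain. CTR-KO ARP-1 was the lowest and CTR-KO MM.1S the highest, as for ERN1. The difference was 1.01 in ARP-1, against -0.39 in MM.1S (mean 0.31, SE 0.39, limma adjusted p = 0.99995). Its paralog ERO1A stayed within 818 to 957 on the 4 arrays, with differences of -0.16 and 0.23.

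MZB1, a chaperone of immunoglobulin assembly found in B and plasma cells, was measured at 566 (CTR-KO) and 774 (MIF-KO) in ARP-1, and 615 (CTR-KO) and 399 (MIF-KO) in MM.1S. Its extremes were the MIF-KO arrays, which were 1.94-fold apart. The control arrays were 1.09-fold apart. HYOU1, a large chaperone of the HSP70 family and an exchange factor for HSPA5, had the same highest and lowest arrays. Its intensity was 815 (CTR-KO) and 985 (MIF-KO) in ARP-1, and 834 (CTR-KO) and 657 (MIF-KO) in MM.1S. A further, dimmer probe set of HYOU1 (46.6 to 60.6) differed in the same directions, by 0.08 (ARP-1) and -0.26 (MM.1S), against 0.27 and -0.34 for the brighter one.

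The lectin chaperones, which hold glycoproteins during folding, differed little. Calreticulin (CALR) was 4501 on CTR-KO ARP-1 and between 3256 and 3405 on the other arrays. Calnexin (CANX) stayed between 1900 and 2085. CRELD2 and MANF, secreted products of the ER stress response, were both higher on each ARP-1 array than on either MM.1S array. The same held for CALR, SDF2L1, DERL1 and DERL3. The share of this order among all tested genes was not counted, so no result about the members is read from it. CRELD2 ranged from 63.9 to 85.1 and MANF from 100.4 to 136. The MM.1S minus ARP-1 difference averaged -0.36 for CRELD2 (SE 0.25) and -0.33 for MANF (SE 0.28), and neither passed (limma adjusted p = 0.99986 for each).

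In ER-associated degradation, where 4 of 9 listed genes were measured, SEL1L stood out. SEL1L, the scaffold of the ubiquitin ligase SYVN1, was measured at 888 (CTR-KO) and 1667 (MIF-KO) in ARP-1, and 1680 (CTR-KO) and 1222 (MIF-KO) in MM.1S. CTR-KO ARP-1 was clearly the lowest, as for ERN1 and ERO1B, and the 2 brightest arrays were nearly level. It was 1.88-fold higher in MIF-KO ARP-1 (0.91) and 1.37-fold lower in MIF-KO MM.1S (-0.46), with a mean of 0.22 (SE 0.40, limma adjusted p = 0.99995). Exchange of the ARP-1 arrays gave a mean of -0.68 with a limma adjusted p of 0.043. The Derlins, membrane proteins of the retrotranslocation step, differed less and not alike. DERL2 differed by 0.23 (ARP-1) and -0.39 (MM.1S), DERL1 by 0.30 and 0.04, and DERL3, the Derlin of secretory cells, by -0.41 and 0.02. DERL3 peaked on CTR-KO ARP-1, with 164 against 118 to 123 elsewhere.

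Genes of translocation and signal peptide cleavage were measured in 6 of 10 cases. SEC61A1, the pore of the Sec61 channel, lay between 2194 and 3065. Its lowest array was MIF-KO MM.1S, and the same array was the lowest for the channel subunit SEC61B (696, against 769 to 890 elsewhere) and for the signal peptidase subunit SPCS3 (864, against 868 to 1059). SEC11C, a catalytic subunit of signal peptidase, ranged from 474 to 662 and was highest on CTR-KO MM.1S. In ARP-1 none of the 6 was 1.5-fold apart, with log2 differences from -0.01 to 0.33, and in MM.1S the differences ran from -0.48 to 0.66.

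SPCS2, a further subunit of signal peptidase, was the only member at least 1.5-fold higher in MIF-KO MM.1S. It was a dim probe set, at 61.7 (CTR-KO) and 77.7 (MIF-KO) in ARP-1, and 44.8 (CTR-KO) and 70.7 (MIF-KO) in MM.1S. Both MIF-KO arrays exceeded both control arrays, as they did for 3 of 23 members (SPCS2, SPCS1 and ATF6; 11.2% of all tested genes). The difference was 0.33 in ARP-1, against 0.66 in MM.1S (mean 0.496, moderated SE 0.25, n = 2 lines). Its unadjusted p was the smallest of the 23 members, and its limma adjusted p was 0.99995. SPCS1, another subunit, was also higher in MIF-KO in both lines, by 0.22 and 0.11. SPCS3 differed by 0.29 and -0.21.

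Counted over all members, limma called 0 of 23 for MIF-KO minus CTR-KO, with a background of 0% of 7442 tested genes. At an unadjusted p below 0.05 there were also 0 members, against 0.215% of all tested genes higher and 0.175% lower. The error of this fit is the disagreement of the lines, moderated toward that of all tested genes. MIF, the target of the hairpin, was lower in both lines (mean -1.17) and had the smallest unadjusted limma p of all tested genes. Its limma adjusted p was nevertheless 0.99995. The absence of calls therefore does not show that members were unchanged. Within ARP-1, MIF-KO exceeded CTR-KO by 1.5-fold or more in 3 members (ERN1, ERO1B and SEL1L; 10.9% of all tested genes) and 1 was lower (SDF2L1; 11.9%). Within MM.1S, 1 was higher (SPCS2; 5.12%) and 2 were lower (ERN1 and MZB1; 2.89%). These shares lie near the background or rest on 1 or 2 genes. Differences within a line have no replicate check.

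The sign of the differences was less even. In ARP-1, 16 of 23 members were higher in MIF-KO (47.7% of all tested genes), with a median of 0.23 against -0.03 for all tested genes. In MM.1S, 15 were lower (44.9%), with a median of -0.08 against 0.04. The combination of higher in MIF-KO ARP-1 and lower in MIF-KO MM.1S held for 12 of 23 members and 30.1% of tested genes, and the reverse for 4 members and 37.5%. Signs were thus opposite in 16 of 23 members and in 67.6% of all tested genes, nearly the same share. Only ERN1 was at least 1.5-fold apart in opposite directions in the lines (4.88% of tested genes). The differences of the lines are opposed across the array as a whole (Pearson r = -0.55 over the 7442 tested genes, which are not independent), and members were not tested against it. With the ARP-1 arrays exchanged, 3 members had the combination (14.8%).

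**Figure D2:**
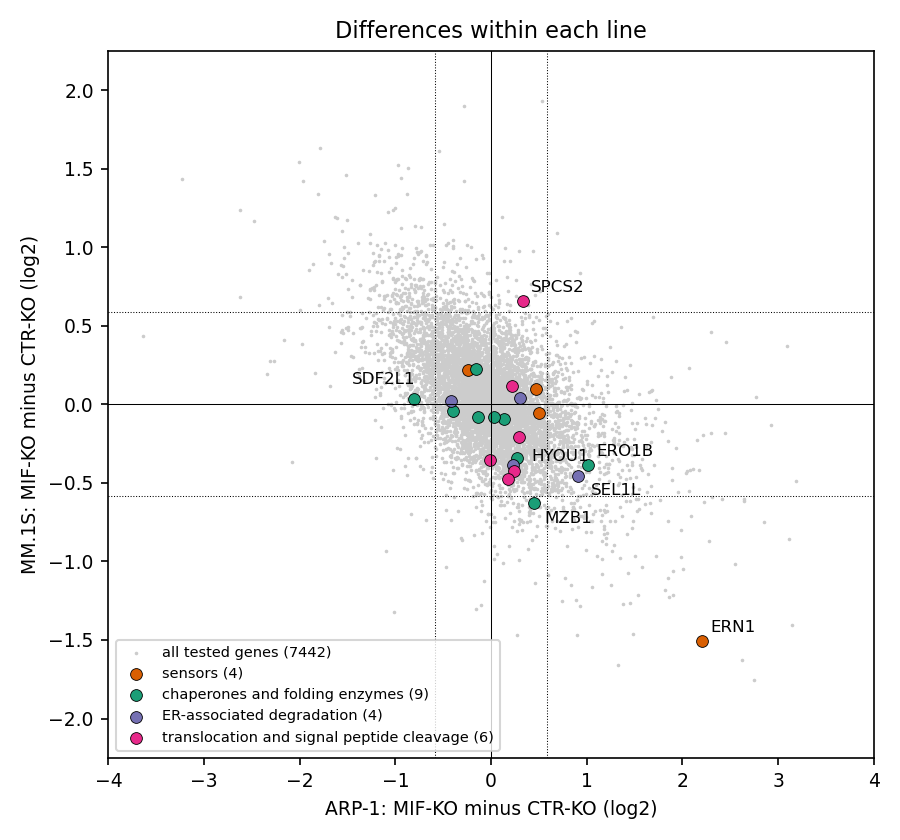
Log2 difference of MIF-KO minus CTR-KO in ARP-1 (horizontal axis) against that in MM.1S (vertical axis), 1 point per gene. Grey points are all 7442 tested genes, coloured points are the 23 members by role, named if at least 1.5-fold apart in some comparison, and dotted lines mark 1.5-fold. ERN1 lies at 2.20 and -1.50, far from the other members, and SPCS2 at 0.33 and 0.66.

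By role, the medians in ARP-1 were 0.49 for the 4 sensors (XBP1 included) and 0.03 for the 9 chaperones and folding enzymes. They were 0.26 for the 4 degradation genes and 0.23 for the 6 translocation genes. In MM.1S the medians were 0.02, -0.08, -0.18 and -0.28 in the same order. The sensors' median in MM.1S changed sign with scaling (-0.001 with arrays shifted to the same median, -0.03 after quantile normalization). Degradation and translocation genes therefore had medians of opposite sign in the lines. Those of chaperones also differed in sign but lay near 0 in both. In ARP-1 and MM.1S, other pathway genes had medians of 0.03 and -0.10 (degradation, 16 tested) and 0.17 and -0.05 (folding, 15 tested). For other translocation and glycosylation genes (20 tested) they were -0.02 and -0.03, so these lists did not all repeat the contrast. Relative to each gene's mean, the chaperones' median was 0.08 on both ARP-1 arrays, and in MM.1S -0.10 (CTR-KO) and -0.21 (MIF-KO). For translocation genes it was -0.07 (CTR-KO) and 0.14 (MIF-KO) in ARP-1, and 0.11 (CTR-KO) and -0.14 (MIF-KO) in MM.1S. The groups hold few genes and their differences were not tested.

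**Figure D3:**
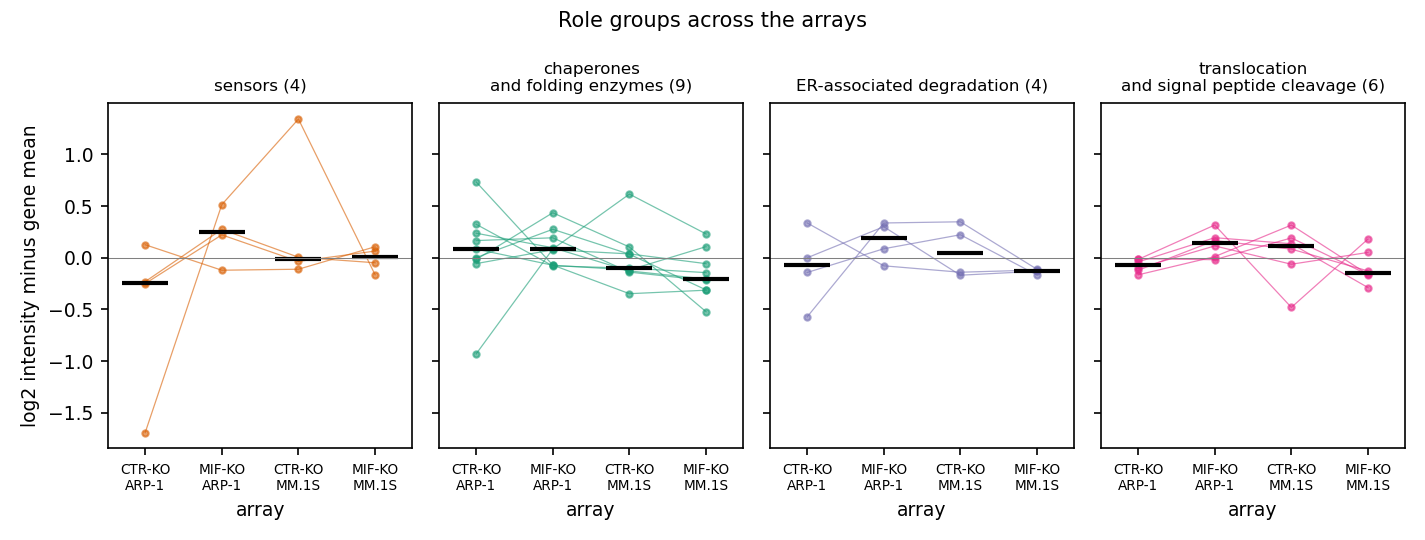
Log2 intensity minus each gene's mean (vertical axis) on the 4 arrays (horizontal axis), 1 panel per role group, with a thin line per gene and a black bar at the group median. Chaperone medians go from 0.08 on the ARP-1 arrays to -0.21 on MIF-KO MM.1S, and 1 sensor, ERN1, spans most of the axis.

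The lines were also compared with each other under each condition. Under MIF-KO, 20 of 23 members were lower in MM.1S than in ARP-1, where 43.4% of all tested genes were lower. The members' median was -0.24, against 0.05 for all tested genes, and the 3 exceptions were EIF2AK3 (0.23), ERO1A (0.18) and ERO1B (0.15). This comparison does not use the CTR-KO ARP-1 array. With the ARP-1 arrays exchanged, 14 of 23 members were lower (46.6% of tested genes). At least 1.5-fold lower were ERN1 (-0.68), HYOU1 (-0.59) and MZB1 (-0.96), against 4.37% of tested genes, and 0 members were as much higher (8.22%).

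Under CTR-KO, 9 of 23 members were lower in MM.1S (51.6% of tested genes), with a median of 0.09. ERN1 (3.03), ERO1B (1.54) and SEL1L (0.92) were at least 1.5-fold higher (11.2%), and SDF2L1 (-1.08) was as much lower (11.1%). Limma called 0 of 23 members over both conditions (0% of 7442 genes; at an unadjusted p below 0.05 there were 0 members, against 0.672% of tested genes higher and 0.497% lower). The smallest p was that of ERO1B, with a mean difference of 0.85 (SE 0.39, limma adjusted p = 0.99986). SDF2L1 averaged -0.66 (SE 0.35) and ERN1 1.18 (SE 0.88), each with the same adjusted p.

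**Figure D4:**
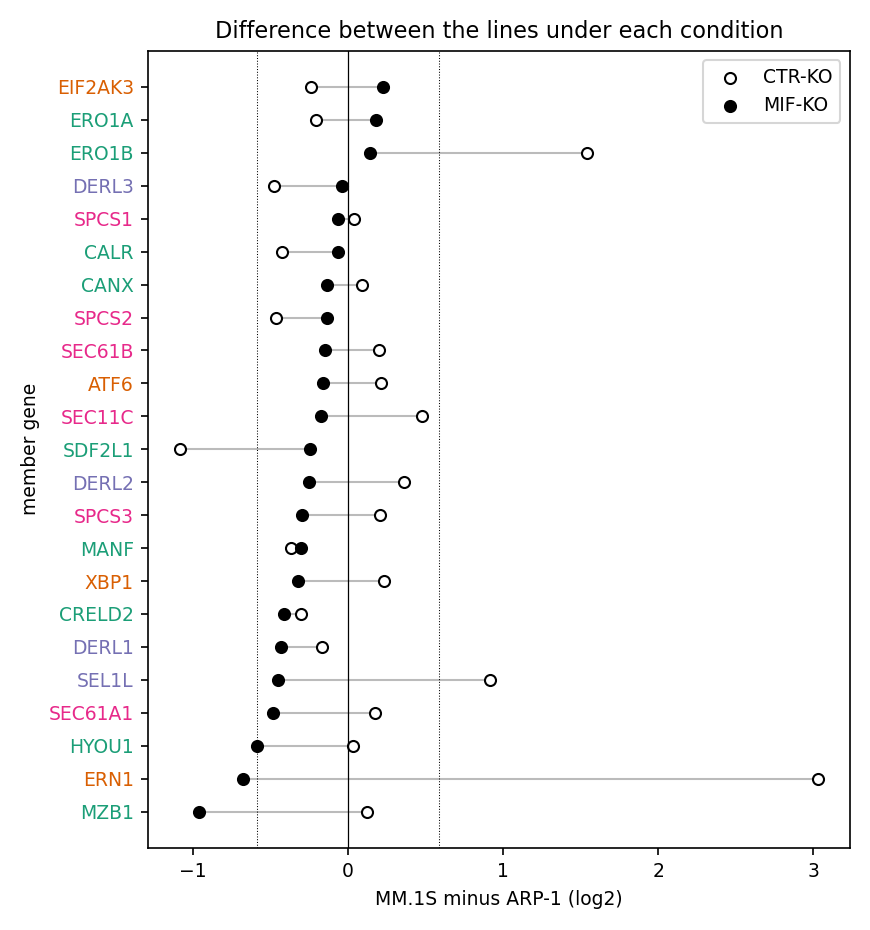
Difference of MM.1S minus ARP-1 on the log2 scale (horizontal axis) for each of the 23 members (vertical axis, coloured by role and ordered by the MIF-KO value), with open circles for CTR-KO and filled circles for MIF-KO; dotted lines mark 1.5-fold. Filled circles lie left of 0 for 20 members, while ERN1 has its open circle at 3.03.

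Across the 4 arrays, 11 of 23 members were highest on MIF-KO ARP-1 (22.6% of tested genes) and 10 were lowest on MIF-KO MM.1S (14.1%). These counts use the same arrays as the comparisons above and are no separate evidence. Without the CTR-KO ARP-1 array they were 15 of 23 (29.4%) and 14 of 23 (30.4%). CTR-KO ARP-1 itself was the lowest array for 7 members (32.5%) and the highest for 5 (32.1%).

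The 7 measured genes with an ERSE or ERSE-II, printed above, did not share a direction in ARP-1. There, 5 of 7 were higher in MIF-KO (47.7% of all tested genes), from -0.80 (SDF2L1) to 1.01 (ERO1B), with a median of 0.13. In MM.1S, 1 of 7 was higher and the others lower, where 44.9% of all tested genes were lower. Their median was -0.08. The 13 measured members in the promoter table without an exact match to either element had medians of 0.23 and -0.35, and hold ERN1, SEL1L and MZB1. HYOU1 and SDF2L1, both with an ERSE-II, differed in opposite directions in ARP-1 (0.27 and -0.80). In MM.1S SDF2L1 was near level, and its sign turned under quantile normalization (0.034 as reported, -0.017 then). The sets are small and the difference between them was not tested.

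Other genes of the pathway, 124 in number, were listed by role as background to the members, and 78 were tested. Limma called 0 of these for MIF-KO minus CTR-KO and 0 for MM.1S minus ARP-1. In ARP-1, 12 exceeded CTR-KO by 1.5-fold or more in MIF-KO cells (10.9% of all tested genes) and 2 were as much lower (11.9%). In MM.1S, 2 were higher (5.12%) and 6 lower (2.89%). The stress signalling and output genes held 6 of the 12 among 10 tested, with medians of 0.74 (ARP-1) and -0.33 (MM.1S). Of these 10, 8 were lowest on CTR-KO ARP-1, the array that stands apart (32.5% of tested genes), with a median of -0.55 there relative to each gene's mean, and the part of that array was not tested. The largest differences were in TXNIP, an inhibitor of thioredoxin, at 2.55 (ARP-1) and -1.01 (MM.1S) for the brighter of its 2 probe sets. The other probe set of TXNIP is not described here. PPIC, a prolyl isomerase of the secretory pathway, followed at 1.51 and -0.96. CREBRF, a regulator of CREB3, differed by 1.16 and -0.87, with a dim signal from 39.0 (CTR-KO ARP-1) to 90.5 (CTR-KO MM.1S). DDIT3, the transcription factor CHOP downstream of PERK, differed by 1.02 and -0.64. DDIT3 was dim, from 18.0 on CTR-KO ARP-1 to 60.3 on CTR-KO MM.1S. ATF3, a transcription factor of the same branch, was at 22.5 on CTR-KO ARP-1 and differed by 1.40 (ARP-1) and 0.18 (MM.1S). On CTR-KO ARP-1 both lay below the level of the filter (log2 4.17 for DDIT3 and 4.49 for ATF3, against 4.97) and below the highest signal of other cell types' markers other than KRT18 (35.5), so the sizes of their ARP-1 differences are uncertain.

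The opposite signs were seen in TRAM2, a translocon-associated protein, at -0.87 (ARP-1) and 0.65 (MM.1S), and in VCP, the ATPase that extracts proteins from the ER membrane, at -0.62 and 0.61. SEC31B, of the COPII coat of vesicles leaving the ER, differed by 0.67 and -0.59. Its signal was dim, from 39.7 (MIF-KO MM.1S) to 67.9 (MIF-KO ARP-1), so the sizes of its differences are uncertain. Transport genes as a list (17 tested) had a median of 0.15 (ARP-1) and -0.16 (MM.1S), and 3 of the 17 were higher in MIF-KO MM.1S. As with the members, 10 of the 17 were lowest on MIF-KO MM.1S. Translocation and glycosylation genes (20 tested) had medians of -0.02 and -0.03, other folding genes (15 tested) 0.17 and -0.05, and other degradation genes (16 tested) 0.03 and -0.10.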

How the data were processed

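The authors deposited a table of linear intensities, 1 value per array for each of 53617 probe sets on 4 arrays, with near-equal quartiles. The submitters' processing notes list RMA and limma without role or version. Log2 was taken with no pseudocount. Of the probe sets, 16098 carried 1 symbol in the platform annotation table and 37519 are unnamed here. Where a gene had several (779 of 14884), its brightest on average was used. Tested genes had a log2 mean of at least 4.97, the median over genes.

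The model was limma 3.58.1 (R 4.3.3) with line and condition and eBayes with a trend. Its p-values were adjusted by Benjamini-Hochberg over 7442 tested genes, with a threshold of 0.05. The fit left 1 residual degree of freedom, and eBayes added 3.99 prior degrees of freedom from all tested genes. The model was tested on simulated data in which both lines had the same difference. The differences of the lines are opposed here, so that test does not show how the model performs on these data. Line is the pairing, from the labels. After subtraction of condition means, the arrays of a line correlated at r = -0.37 across genes.

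Members, gene lists and tests were chosen with earlier results of these data known, and the promoter motifs after the values were seen. Array values are given for sensors and for members at least 1.5-fold apart within a line or between lines under a condition. Other pathway genes named are the 8 with the largest mean absolute difference within lines. Alternatives were the filter, scaling, probe set averaging, a pseudocount, exchange of the ARP-1 arrays, no line term, no trend and leaving out a line. Intensities carry no depth, so the number of arrays limits precision.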

Additional observations from a re-analysis of the deposited data

Results flagged for a closer look

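The lines had responses of opposite sign in 8 of the 10 members described by array and in 7 of the 8 other pathway genes named. Opposite signs were found in 16 of all 23 members and in 5028 of all 7442 tested genes (67.6%), and the genes named were mostly picked for large differences. Each has 1 array per line and condition, so the difference between the lines was not tested. The response in MM.1S minus that in ARP-1, on the log2 scale, was -3.71 for ERN1, -1.40 for ERO1B, -1.37 for SEL1L, -1.08 for MZB1, -0.62 for HYOU1 and -0.56 for XBP1. It was 0.84 for SDF2L1 and 0.46 for EIF2AK3. The MM.1S difference of SDF2L1 was close to 0 (0.034) and its sign turned under quantile normalization (-0.017), so its opposite signs depend on the scaling. Among the other pathway genes the response in MM.1S minus that in ARP-1 was -3.57 for TXNIP, -2.47 for PPIC, -2.03 for CREBRF, -1.66 for DDIT3 and -1.26 for SEC31B, and 1.53 for TRAM2 and 1.23 for VCP. The size for DDIT3 is uncertain, since its signal on CTR-KO ARP-1 (18.0) was below the level of the filter. CREBRF and SEC31B were dim as well, with lowest signals of 39.0 and 39.7. The CTR-KO ARP-1 array was the lowest or the highest of the 4 arrays for ERN1, XBP1, EIF2AK3, SDF2L1, ERO1B and SEL1L, and for neither HYOU1 nor MZB1. Its part in these differences was not tested.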

How the results depend on the processing

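Exchange of the ARP-1 arrays had the widest effect, and with it MIF was higher, not lower, under its hairpin in ARP-1 (1092 against 541). It gave 2 members called for MIF-KO minus CTR-KO (ERN1 and SEL1L), among 401 of all tested genes, in place of 0. By construction it turned the differences in ARP-1, to -2.20 for ERN1, -1.01 for ERO1B, -0.91 for SEL1L and 0.80 for SDF2L1, and left 1 member at least 1.5-fold higher and 3 lower there. The mean differences became -1.85 (ERN1), -0.70 (ERO1B), -0.68 (SEL1L) and 0.42 (SDF2L1). The count higher in MIF-KO ARP-1 and lower in MIF-KO MM.1S became 3, and 5 members were highest on the array then called MIF-KO ARP-1. SPCS2 no longer counted as 1.5-fold higher in MM.1S under the stricter filter, which removed it, and with a pseudocount of 16 (0 members in each case). Leaving out a line gives the value of the other, with no test: mean differences then ranged from -1.50 to 2.20 for ERN1, -0.39 to 1.01 for ERO1B, -0.46 to 0.91 for SEL1L, -0.80 to 0.034 for SDF2L1 and 0.33 to 0.66 for SPCS2. Counts of calls could not be had without a line, since no residual degree of freedom remains. With no replicate block, that is without the line term in the model, 0 members were called, and this changed no other call. Of 563 alternative values, 20 moved and 12 reversed. The other 531 kept direction and call (tests), or stayed within 1.5 times (counts) or 0.29 log2 units (untested values). Many of the 531 could not change. A filter leaves the values of a gene as they are, and the line term and the trend leave differences within a line as they are. Their number is thus no measure of robustness. The reversed values came from exchange of the ARP-1 arrays or from leaving out ARP-1. Without the CTR-KO ARP-1 array, an alternative chosen after seeing the data, 15 and 14 members were highest on MIF-KO ARP-1 and lowest on MIF-KO MM.1S. Dim probe sets such as SPCS2 and ERO1B limit the firmness of their folds.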
